A study of Rattus norvegicus with 6 samples.

Results

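The genes described here hold the switches that set how much cholesterol and fat a liver makes, and they were compared between rats given a control diet and rats given a low-protein diet. They are Srebf1, Srebf2, Scap, Insig1, Insig2, Stard4 and Mlxipl. They were read from all probe sets to which the array annotation gives exactly 1 gene symbol, that symbol being 1 of these 7. The rule found 13 probe sets for the 7 genes, out of 31042 probe sets and 14217 genes tested. Liver RNA of male Wistar rats, 6 weeks old and about 150 g when bought, was hybridised to 6 Affymetrix arrays, 3 for the control diet (15P) and 3 for the low-protein diet of equal energy (5P). Every rat had 4 days on pellets and 4 days of training to eat the 15P diet in a daytime window, then ate its own diet for 8 hours and had no food for the 16 hours before the liver was taken. All values therefore come from livers without food since the test meal, in both groups. No label ties each array to its own rat, so p-values measure the spread between these samples, which may be technical. Control replicate 3 lay apart from the other controls over all probe sets: it scored -10.11 on the first principal component, against -26.91 and -22.45 for them and 17.34 to 22.59 for low protein.

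SREBP proteins are made as inactive precursors in the membrane of the endoplasmic reticulum. Scap is the sterol sensor that carries them to the Golgi, where proteases release the part that enters the nucleus, and the Insig proteins hold Scap back when sterols are plentiful. SREBP-2, from Srebf2, mainly drives cholesterol synthesis, and SREBP-1, from Srebf1, mainly drives fatty acid synthesis. ChREBP, from Mlxipl, turns on glycolytic and lipogenic genes when carbohydrate is abundant. Stard4 is a soluble sterol carrier inside cells, and both Insig1 and Stard4 are known as genes that SREBP-2 switches on.

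The regions just upstream of Insig1 and Mlxipl are shown because these were the members that passed the test. They are RefSeq sequences of assembly GRCr8, read 5′ to 3′ on the minus strand as the gene reads, from 250 bases before the annotated start up to the first base that any transcript of the gene covers. Capitals mark matches to 3 short motifs: CACGTG, an E-box of the kind that bHLH factors such as SREBP and ChREBP can bind; TCACNCCA, the core of sterol regulatory elements; and CCAAT, which reads ATTGG on the other strand.
Insig1, chr4:8057813-8058019: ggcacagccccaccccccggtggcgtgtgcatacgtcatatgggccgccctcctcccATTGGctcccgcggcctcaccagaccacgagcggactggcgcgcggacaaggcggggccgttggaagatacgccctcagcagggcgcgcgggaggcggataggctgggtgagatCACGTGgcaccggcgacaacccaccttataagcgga
Mlxipl, chr12:27213676-27213910: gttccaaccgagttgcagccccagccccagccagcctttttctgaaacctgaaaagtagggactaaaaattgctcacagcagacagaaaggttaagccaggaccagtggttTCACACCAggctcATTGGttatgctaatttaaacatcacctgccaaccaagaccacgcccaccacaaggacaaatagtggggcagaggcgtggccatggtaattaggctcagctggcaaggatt
The Insig1 stretch held the E-box at -79 to -74 from the start and ATTGG at -193 to -189, and no TCACNCCA. The Mlxipl stretch held TCACACCA at -139 to -132, with ATTGG a few bases on at -126 to -122. Mlxipl has another annotated start, from which the same matches lie at -143 to -136 and -130 to -126. On both strands of all 33469 windows of 300 bases in the RefSeq table, 6.42% held CACGTG, 3.89% held TCACNCCA and 37.5% held CCAAT. Of the other members, the Srebf2 window held TCACCCCA at -156 to -149 and the Scap window held CACGTG at -50 to -45. The windows of Srebf1 and Insig2 held neither of these motifs. Such matches describe the letters of these windows only. No match was looked for outside them, and Stard4 had no entry in the table.

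Low-protein livers carried less Insig1 and Mlxipl RNA, and no member rose. Whichever of the 6 arrays was left out, the Mlxipl call was lost and the Insig1 call was kept. Of the 13 member probe sets 2 passed at an adjusted p under 0.05 over all probe sets, both downward, beside 0.132% of all 31042 probe sets in either direction, 0.0966% downward and 0.0354% upward. In all, 9 of the 13 were lower at any size, against 41.9% of all probe sets, and 8 had an unadjusted p under 0.05, against 15.4%. The array-wide count was 41, of which 26.8% rose (16.7% with arrays centred on their medians and 40.7% when centred on their 75th percentiles). On 6 of the 13 probe sets every low-protein array lay below every control array, against 9.12% of all probe sets. These 6 belong to Insig1, Mlxipl, Stard4 and Scap. Probe sets of 1 gene are not separate observations. At their brightest probe sets 4 of the 7 genes separated in this way, against 10.1% of all genes. The median log2 fold change, low protein minus control, was -0.37 over the 13 probe sets, which count 5 of the genes more than once, and -0.67 over the 7 genes at their brightest probe sets. It was 0.032 over all probe sets and 0.031 over all genes. In bulk liver, fewer cells of a type and less RNA per cell cannot be told apart.

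**Figure D1:**
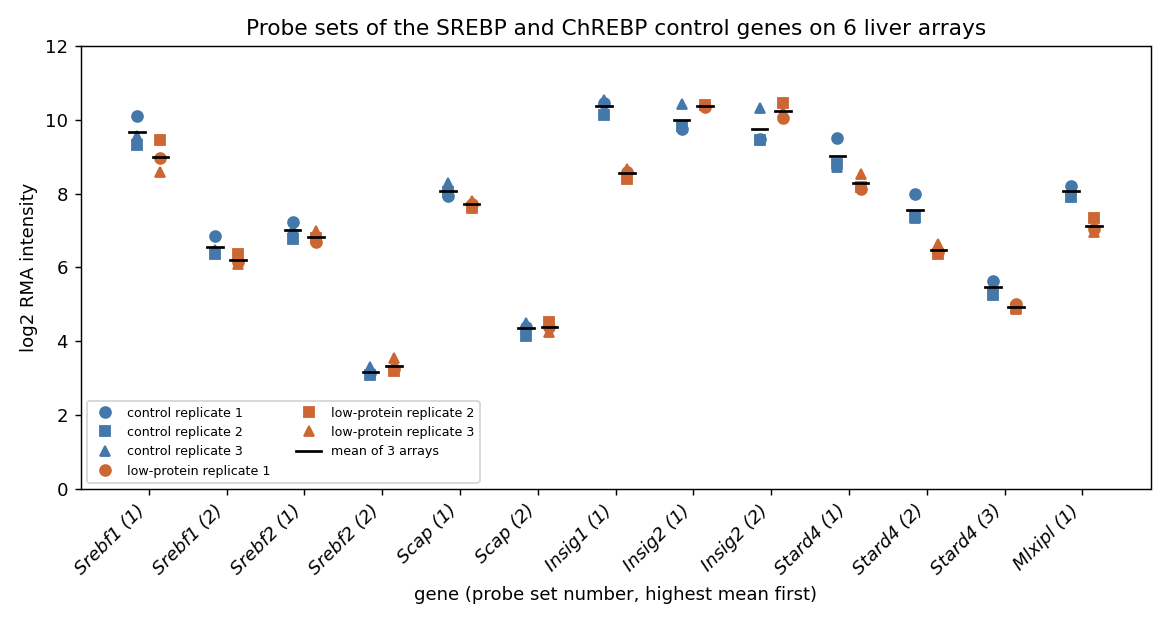
The log2 RMA intensity of each of the 13 probe sets (vertical axis) on the 3 control arrays (blue) and the 3 low-protein arrays (orange), with the mean of each diet as a black bar; numbers in brackets order the probe sets of a gene by mean. Insig1 and Mlxipl separate clearly by diet, the 3 Stard4 probe sets separate with a wider spread among controls, and Insig2 overlaps through control replicate 3.

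Insig1 (gene ID 64194), the SREBP-induced anchor that keeps Scap in the endoplasmic reticulum, had the largest change of the 7 genes. Its log2 intensity was 10.44, 10.12 and 10.54 on control replicates 1 to 3, and 8.58, 8.39 and 8.67 on low-protein replicates 1 to 3. The groups lay far apart, and within each diet the arrays stayed close together. The mean went from 10.37 ± 0.22 to 8.55 ± 0.14 (SD, n = 3 each), a log2 fold change of -1.82 (SE 0.131) or 3.52-fold lower, with limma's adjusted p = 0.00682. Its 95% interval, not adjusted for the number of probe sets, ran from -2.12 to -1.52. Among the 14217 genes, each taken at its brightest probe set, Insig1 ranked 9 from the lowest fold change. It passed in all 6 fits that left out 1 array (log2 fold change -1.94 to -1.73, the latter without control replicate 3), and did not pass on the log2(value + 16) scale (adjusted p = 0.0554).

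Insig2 (gene ID 288985), the paralog that restrains Scap in the same way but is not known as an SREBP target, did not follow Insig1. The brighter probe set read 9.74, 9.83 and 10.42 on control replicates 1 to 3 and 10.34, 10.40 and 10.39 on low-protein replicates 1 to 3. Control replicates 1 and 2 lay below all low-protein arrays, and control replicate 3 lay above them. The other probe set likewise had control replicate 3 well above the other controls, at 9.48, 9.46 and 10.32, and read 10.06, 10.46 and 10.21 on low protein. The log2 fold changes were 0.38 (SE 0.167) and 0.49 (SE 0.225), and neither passed (limma, adjusted p = 0.33 and 0.346). Without control replicate 3 they were 0.59 and 0.77, and still did not pass (adjusted p = 0.0635 and 0.0741). They were 0.25 and 0.35 without control replicate 1 (adjusted p = 0.596 and 0.602), and 0.30 and 0.34 without control replicate 2 (0.582 and 0.622).

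The difference between the paralogs was taken within each array, as log2 Insig1 minus log2 Insig2 at their brightest probe sets. Its zero has no meaning, since different probes cannot be compared in level, but its shift between diets has. It was 0.70, 0.29 and 0.12 in control livers, against -1.76, -2.01 and -1.72 in low-protein livers. The groups did not overlap, and the shift was -2.19 on the log2 scale. The two-sided exact permutation test gave p = 0.1, the smallest that 3 against 3 arrays allow.

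**Figure D2:**
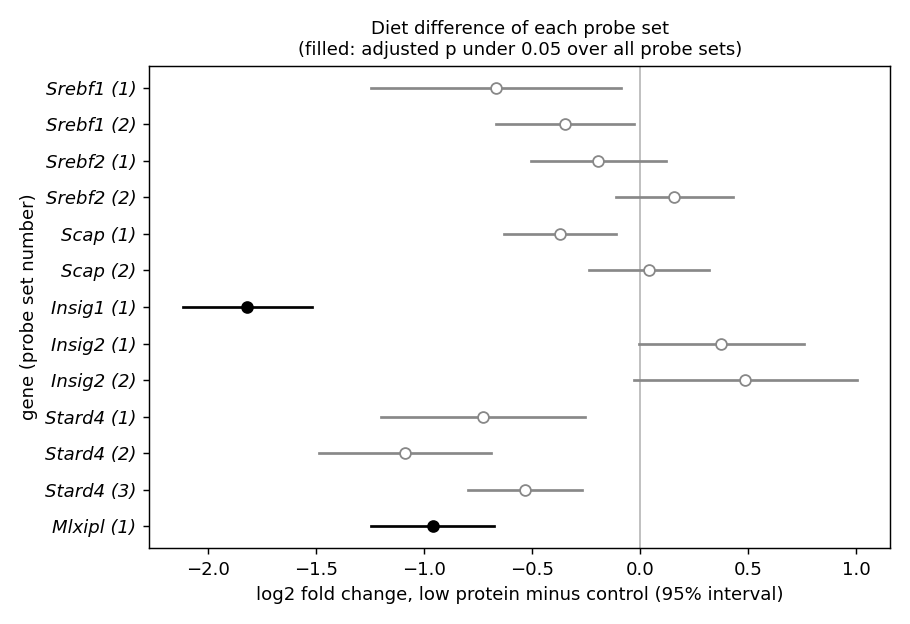
The log2 fold change of each member probe set, low protein minus control (horizontal axis), with its unadjusted 95% interval; filled black points passed at an adjusted p under 0.05. Insig1 at -1.82 and Mlxipl at -0.96 passed, and the Insig2 probe sets lie on the other side of 0 with intervals that include it.

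Scap (gene ID 301024), the escort and sterol sensor, had a small difference on 1 of its 2 probe sets. The brighter one read 7.93, 8.03 and 8.28 on control and 7.72, 7.60 and 7.80 on low protein. Every low-protein array was below every control array, though the gap between the groups was narrower than the range within either. The log2 fold change was -0.37 (SE 0.114), which did not pass (limma, adjusted p = 0.192). The dimmer probe set had 0.04 (SE 0.121), with values of 4.15 to 4.50 on control and 4.24 to 4.53 on low protein, so the probe sets of Scap disagreed.

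Srebf2 (gene ID 300095), the precursor of the cholesterol regulator, showed no difference beyond the spread of its arrays. The brighter probe set read 7.24, 6.76 and 7.04 on control and 6.69, 6.79 and 6.98 on low protein, with the groups overlapping. Its log2 fold change was -0.19 (SE 0.136, 95% interval -0.50 to 0.12, limma's adjusted p = 0.534), and ran from -0.32 without control replicate 2 to -0.08 without control replicate 1. The other probe set was the dimmest of the 13, at the 14.7 percentile of mean intensity, and had 0.16 (SE 0.119; 0.05 to 0.23 with 1 array left out).

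Srebf1 (gene ID 78968), the precursor of the lipogenic regulator, read lower on average and was scattered within both diets. Its brighter probe set read 10.11, 9.31 and 9.56 on control and 8.95, 9.45 and 8.58 on low protein. Low-protein replicates 1 and 3 lay below all controls, and low-protein replicate 2 lay inside their range. The log2 fold change was -0.67 (SE 0.252, 95% interval -1.24 to -0.09) and did not pass (limma, adjusted p = 0.262). It was -0.44 with control replicate 1 left out, and -0.46 and -0.90 with low-protein replicates 3 and 2 left out, none of which passed. The second probe set kept the same high array, control replicate 1 at 6.84, and differed by -0.35 on the log2 scale (SE 0.139, limma's adjusted p = 0.287). The files do not say which of the SREBP-1a and SREBP-1c transcripts either probe set reads. Within arrays, the shift of Srebf1 relative to Srebf2 was -0.47, with overlapping groups (two-sided exact permutation p = 0.3).

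Mlxipl (gene ID 171078), the gene of the glucose sensor ChREBP, fell with little scatter. Its single probe set read 8.19, 7.91 and 8.11 on control and 7.05, 7.33 and 6.96 on low protein. The highest low-protein array was well below the lowest control. The mean went from 8.07 ± 0.14 to 7.11 ± 0.19 (SD, n = 3 each), a log2 fold change of -0.96 (SE 0.124) or 1.95-fold lower (limma, adjusted p = 0.0414). The call was narrow: it held in 0 of the 6 fits that left out 1 array (adjusted p = 0.0503 to 0.123, log2 fold change -1.07 to -0.88, and -0.94 with an adjusted p = 0.0598 without control replicate 3), and not with quantile normalization (0.0525), on the log2(value + 16) scale (0.0698) or with the replicate number as a block (0.123). On the low-protein arrays Mlxipl and Srebf1 had the same order, with replicate 2 highest and replicate 3 lowest. The shift of Srebf1 relative to Mlxipl was 0.29, with overlapping groups (two-sided exact permutation p = 0.3).

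Stard4 (gene ID 291699), the sterol carrier, was lower on every low-protein array on all 3 of its probe sets, and none of them passed. The brightest read 9.49, 8.81 and 8.72 on control and 8.13, 8.18 and 8.54 on low protein, a log2 fold change of -0.73 (SE 0.206, limma's adjusted p = 0.169). The middle one read 7.98, 7.37 and 7.33 against 6.43, 6.36 and 6.63, and had the largest difference at -1.09 (SE 0.174, adjusted p = 0.0598). It passed with a robust prior variance (0.047) and with array weights (0.0457), and over all alternatives its adjusted p ranged from 0.0457 to 0.16. The dimmest read 5.63, 5.24 and 5.50 against 5.02, 4.90 and 4.86, at -0.53 (SE 0.116, adjusted p = 0.104). Control replicate 1 was the highest array on each of the 3, and without it the brightest probe set had -0.48 and the middle one -0.88.

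**Figure D3:**
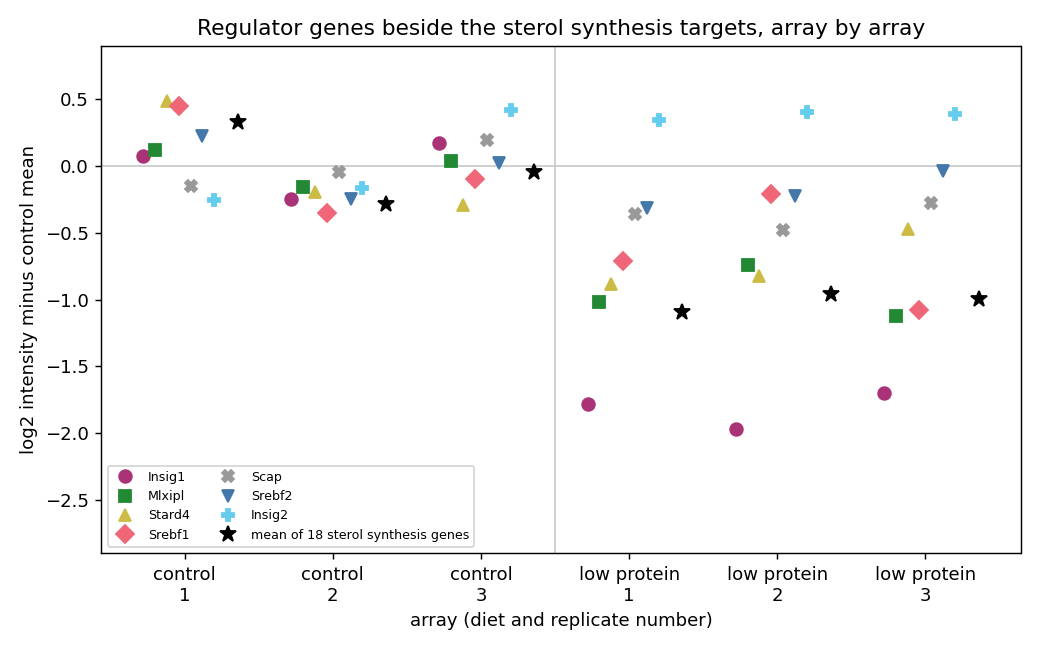
The log2 intensity of each member's brightest probe set minus its mean over the control arrays (vertical axis), on each of the 6 arrays, with the mean of 18 sterol synthesis genes as black stars. Insig1 lies at -1.97 to -1.70 on the low-protein arrays, and Insig2 at 0.34 to 0.40. The sterol synthesis mean lies at -1.09 to -0.96 there, and its single genes had log2 fold changes from -1.90 to -0.28.

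The genes whose array patterns were most like those of the members were found from the root-mean-square difference between log2 values over the 6 arrays, each gene centred on its own mean. This measure takes in the diet difference itself. Insig1 lay nearest to Cyp51, the lanosterol demethylase of cholesterol synthesis (0.131), Fdps, the farnesyl diphosphate synthase (0.159), and Fads2, the delta-6 desaturase (0.234), where Insig1 itself varied by 0.921 about its mean. Srebf1 lay nearest to Caprin2, Chrd and Got1 (0.157, 0.166 and 0.195). Got1 is the cytosolic aspartate aminotransferase. Mlxipl lay nearest to Cped1, Luc7l and Abca8a (0.103, 0.111 and 0.138), and Stard4 to Pdzrn3, Rsrp1 and Elf1 (0.0643, 0.0956 and 0.111). None of the genes nearest to Srebf1, Mlxipl and Stard4 passed the test, with adjusted p from limma of 0.059 to 0.234. Among the members themselves, Srebf1 and Mlxipl differed by 0.265, Insig1 and Mlxipl by 0.475, and Insig1 and Insig2 by 1.11.

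The target genes of these regulators were read from lists, each gene at its brightest probe set, where 0.12% of 14217 genes fell, 0.0633% rose and the median log2 fold change was 0.031. Among sterol synthesis targets of SREBP-2, 18 of 21 listed genes were measured: 4 fell, none rose and 14 did not pass. All 18 were lower, as were 42.4% of all genes, and their median was -0.91. Fdps fell 3.41-fold and Cyp51 3.47-fold (limma, adjusted p = 0.00833 for both). Tm7sf2, a sterol reductase, fell 2.38-fold (adjusted p = 0.00833), and the sterol isomerase gene Ebp fell 1.82-fold (adjusted p = 0.0438). On 15 of the 18 the groups did not overlap, against 10.1% of all genes downward. The mean of the 18 was 0.33, -0.29 and -0.05 on control replicates 1 to 3 relative to the control mean, and -1.09, -0.96 and -0.99 on low protein. Among the controls, replicate 1 was highest for this mean, as it was for the brightest probe sets of Srebf1, Srebf2, Stard4 and Mlxipl, while Insig1 was highest on replicate 3. Ebp passed in 0 of the 6 fits that left out 1 array (adjusted p = 0.0635 to 0.132), and on the log2(value + 16) scale none of the 18 passed by limma, with 16 at an unadjusted p under 0.05.

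The list named fatty acid synthesis targets of SREBP-1 also holds glycerolipid and lipid droplet genes and a sterol-related gene. It had 17 measured genes, of which 2 fell, none rose and 15 did not pass, with 16 lower and a median of -0.46. Fads2 and Fads1, the polyunsaturated fatty acid desaturases, fell 4.06-fold and 4.60-fold (limma, adjusted p = 0.00833 and 0.0104); Fads1 did not pass without control replicate 2 (0.0508), and neither passed on the log2(value + 16) scale. Pnpla3, a lipid droplet protein gene, did not pass at a log2 fold change of -2.24 (SE 0.357; limma, adjusted p = 0.0595); it passed without control replicate 2 (-2.70, 0.00631), and its adjusted p was 0.00631 to 0.158 over the left-out arrays. The single higher member was Me1, the malic enzyme, at 0.66 (SE 0.244). The fatty acid synthase gene Fasn, outside the naming rule and chosen after its value was seen, had -1.77 (SE 0.464, adjusted p = 0.15).

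ChREBP partners and targets had 13 measured genes of 15 listed, and none passed by limma over all probe sets, while 6 had an unadjusted p under 0.05, beside 16.4% of all genes. Their median was -0.11, with 6 higher and 7 lower. Lipogenic genes, which ChREBP also turns on, were placed in the SREBP-1 list, so these lists do not separate the regulators. Rgs16, a regulator of G-protein signalling, had the largest log2 fold change at 1.34 (SE 0.35, adjusted p = 0.15), the clock factor Bhlhe40 had -0.55 (SE 0.152), and the fructokinase gene Khk had 0.41 (SE 0.117). Genes of SREBP processing and turnover had 13 measured of 16 listed; none passed, and none reached an unadjusted p under 0.05. Their log2 fold changes ran from -0.26 for the ubiquitin ligase subunit gene Fbxw7 to 0.28 for Spring1, which supports maturation of the site-1 protease, with the site-2 protease gene Mbtps2 at 0.11. With 1 array left out these moved widely: Spring1 ran from -0.04 without control replicate 1 to 0.54 without control replicate 2, Fbxw7 from -0.40 to -0.16 without low-protein replicates 1 and 3, and Mbtps2 from 0.05 to 0.16 without control replicate 1 and low-protein replicate 1.

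**Figure D4:**
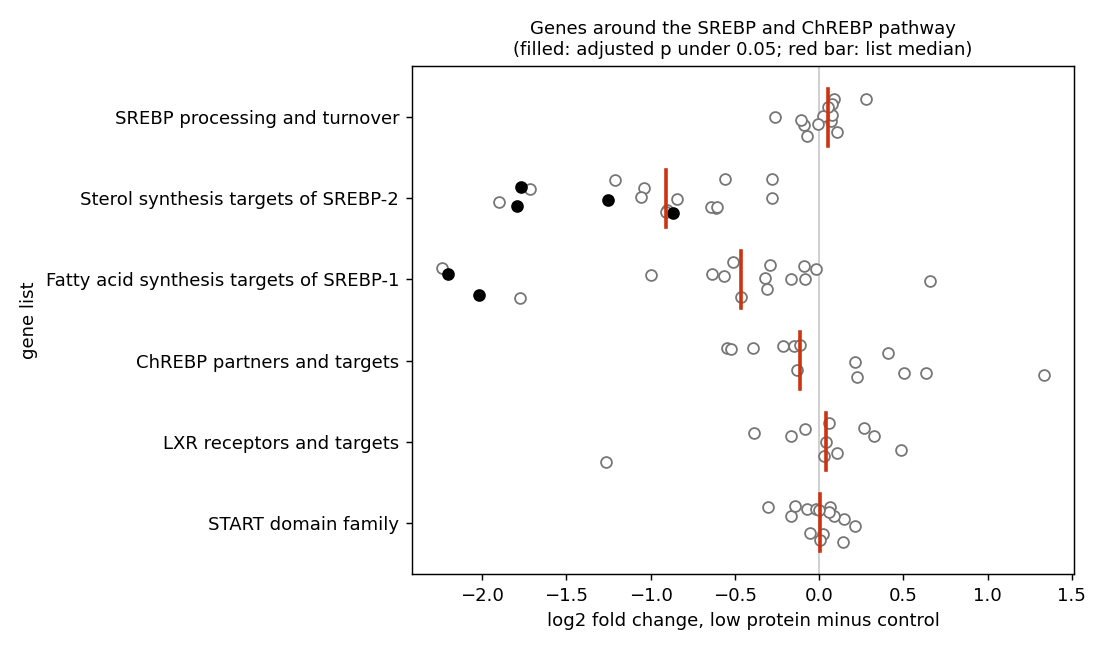
The log2 fold change, low protein minus control (horizontal axis), of each measured gene in 6 lists around the SREBP and ChREBP pathway; filled points passed at an adjusted p under 0.05 and red bars are list medians. The sterol synthesis list lies wholly below 0 with a median of -0.91, while the processing and START domain lists gather around 0.

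The deposited table gave a median intensity of 33.26 to 34.24 per array, and the number of arrays limits the precision. Hepatocyte genes were bright on every array (Alb 21390 to 21670 and Hnf4a 2703 to 3993 in linear intensity), and their summed intensity over 7 measured markers was 83009 to 83655 on control and 78433 to 80114 on low protein, with 0 of 7 past the test by limma and 1 at an unadjusted p under 0.05. The 4 red blood cell markers summed to 2845 to 3100 on control and 4030 to 4294 on low protein. By limma 0 of 4 passed the test and 2 had an unadjusted p under 0.05. Hbb made up nearly all of this sum, at 2758 to 4180 over the arrays, while Alas2 reached at most 64.54. The log2 fold changes were 0.48 for Hbb, 0.43 for Alas2 and 0.14 for Slc4a1, and the remaining marker was lower at -0.06. Kupffer cell, lymphocyte, endothelial, stellate, cholangiocyte, adipocyte and exocrine pancreas markers had 0 genes past the test, with 0 at an unadjusted p under 0.05 except 2 of 3 for cholangiocytes, which were lower. The hepatocyte sums separated the diets in the same direction as Insig1 and Mlxipl, and the red blood cell sums in the opposite one. Of the 7 hepatocyte markers 5 were lower and 2 higher. On 3 of the lower ones and 1 of the higher ones the groups did not overlap. The 2 higher ones lay at percentiles 99.94 and 100 of mean intensity, where the scale leaves little room to differ. Apoa2, Cps1 and Apoa1 had log2 fold changes of -0.27, -0.23 and -0.19, beside -0.01 for Hnf4a and 0.0025 for Alb. The part of either sum in these results was not tested.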

How the data were processed

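The authors deposited 1 intensity per probe set and array, produced by RMA according to the submitters' processing notes, whose software and version are not given in the sources used. RMA largely removes differences in total signal, and a change common to most genes cannot be seen. The intensities ran from 3.61 to 21668 and were read as linear, and log2 was taken. Of 31099 probe sets 57 Affymetrix controls were left out. Gene symbols come from the platform annotation; 20758 of the 20826 probe sets with 1 symbol matched a RefSeq gene ID. Diets were compared per probe set with limma 3.58.1 (lmFit and eBayes, R 4.3.3, two-sided), and p-values were adjusted by Benjamini-Hochberg over all 31042 probe sets, threshold 0.05. A list gene was taken at its probe set of highest mean.

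The members and lists were chosen with earlier results of these data known, and the motifs after the windows had been read. The naming rule took all members, up to 3 list genes of smallest p, and the 3 nearest patterns of each member with a range over 1 (log2); Ebp, Me1, Fasn, Alb and Hnf4a are outside it and were chosen after their values were seen. In simulated data of this size the fit found 193 of 200 probe sets given a log2 change of 1, and made 14 false calls. The simulated noise was normal, independent between probe sets and set to the fitted spread of each. In the deposited data larger differences, such as -2.24 for Pnpla3, did not pass. The simulated rate is therefore no measure of how often such a change would be found here. Figures were drawn with matplotlib 3.10.9.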

Additional observations from a re-analysis of the deposited data

How the results depend on the processing

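The alternatives changed the prior variance, the scaling, a filter on dim probe sets, array weights, blocking on the replicate number, the unit of adjustment, the log scale and the arrays used. The array-wide count of 41 became 103 with a robust prior variance, 78 with median centring, 102 with array weights, 26 with 1 probe set a gene, 6 with the replicate block and 0 on the log2(value + 16) scale (limma; 4913 at an unadjusted p under 0.05), and 16 to 109 with 1 array left out; it was 17 without control replicates 1 or 2, 109 without control replicate 3, and 22, 16 and 18 without low-protein replicates 1, 2 and 3. The count of 2 member probe sets became 1 with quantile normalization, 1 with the replicate block, 0 on the log2(value + 16) scale (7 at an unadjusted p under 0.05), and 1 in each fit without 1 array. Mlxipl was lost in each of these, and Insig1 on the log2(value + 16) scale. The count became 3 with a robust prior variance and 3 with array weights, where the middle Stard4 probe set passed as well. Same-numbered arrays did not deviate together (correlations of -0.0873, -0.0272 and -0.102, against -0.0715 to 0.147 for other pairs). These values show no sign that the numbers pair the arrays. They are taken about group means of 3 arrays, and cannot exclude a pairing. With the block, as on the log2(value + 16) scale, 0 of the 18 sterol synthesis genes and 0 of the 17 in the fatty acid synthesis list passed by limma. At an unadjusted p under 0.05 there were 17 and 9 with the block, and 16 and 8 on the other scale. The list counts were added to the alternatives after the data were seen. The dimmer Scap probe set turned from 0.04 to -0.0041 with quantile normalization and ran from -0.0565 to 0.117 with 1 array left out. No other member probe set changed direction. Scaling shifted the median log2 fold change of all probe sets by at most 0.049. The 3 differences between pairs of members kept their direction. The Srebf1 minus Srebf2 shift ran from -0.718 to -0.189 with 1 array left out.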

Other observations

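The list of LXR receptors and targets had 11 measured members. It holds the sterol-sensing receptors, their partner, target genes and also the bile acid receptor gene. None passed by limma, and 3 had an unadjusted p under 0.05, beside 16.4% of all genes. The median log2 fold change of the 11 was 0.04, with 7 higher and 4 lower. Abca1, the cholesterol exporter, had -1.26 (SE 0.266, adjusted p = 0.0976), going from 9.58 ± 0.63 to 8.31 ± 0.10 (SD, n = 3 each), with groups that did not overlap. Without control replicate 3, Abca1 was the 1 gene of this list that passed, at -1.63 (limma, adjusted p = 0.00886; 0.00886 to 0.248 over the 6 left-out arrays). Lpcat3, a phospholipid remodelling enzyme, had -0.39 (SE 0.132), and the sterol transporter subunit gene Abcg8 had 0.33 (SE 0.109) at a low intensity.

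The list of START domain proteins, the family of Stard4, also holds sterol carriers and proteins without that domain. Not every member moves lipids between membranes. Of the listed genes 15 of 17 were measured. None passed by limma, and 1, Npc2, a lysosomal sterol carrier, had an unadjusted p under 0.05, at -0.31 (SE 0.109, adjusted p = 0.242). The list ran from -0.31 to 0.21, against -0.73 for the brightest Stard4 probe set. Acot12 and Stard3nl had 0.21 (SE 0.134) and 0.15 (SE 0.114), and were 0.08 each without control replicate 1 and low-protein replicate 3 respectively.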
